A study of Mus musculus with 6 samples.

Results

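The hypoxia-inducible factor (HIF) pathway was examined through 10 genes: its alpha subunits Hif1a and Epas1, their partner Arnt, the oxygen sensors Egln1, Egln2, Egln3 and Hif1an, the ubiquitin ligase subunit Vhl, and the angiogenic targets Vegfa and Adm. They were taken by gene name, and all 10 were found among the 24935 genes of the deposited table and passed the filter on low values. RNA came from the left hippocampus of C57BL/6 mice at P14 (P for postnatal day), with 1 library per mouse. In the hyperoxia group (3 mice), newborn pups and their dams had lived in 85% oxygen at normal pressure between P2 and P14, and in the air group (3 mice) they stayed in room air. Pups of both sexes were used, and the sex and litter of each mouse are not given in the labels. The libraries are named by the number of their column, which is not an animal's number.

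HIF is a pair of proteins, an oxygen-regulated alpha subunit and the constitutive partner ARNT, that binds the core motifs ACGTG and GCGTG in DNA. When oxygen is present, prolyl hydroxylases of the EGLN family mark the alpha subunit, VHL recognises the mark, and the alpha subunit is ubiquitinated and degraded, while the asparaginyl hydroxylase encoded by Hif1an blocks its contact with the coactivators p300 and CBP. Most of this control acts on protein, which was not measured in these libraries. In brain, HIF1A is widely present, EPAS1 is prominent in endothelial cells, pericytes and astrocytes, and VEGFA and adrenomedullin (Adm) act on vessels through receptors that endothelial cells carry.

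The promoters of the target genes Adm and Vegfa are shown. That of the sensor gene Egln1 is shown because its window holds TACGTG, a longer form of ACGTG. This motif was thus the reason for the choice of Egln1 and not a finding about it. Each run is the 250 bases before a RefSeq gene start (GRCm38.p6), 5′ to 3′ on the gene's strand, at chr7:110627407-110627656 on the plus strand for Adm, chr8:124949255-124949504 on the minus strand for Egln1 and chr17:46032378-46032627 on the minus strand for Vegfa. Capitals mark the core motifs ACGTG and GCGTG on either strand, so that CACGC is GCGTG read on the other strand.
Adm: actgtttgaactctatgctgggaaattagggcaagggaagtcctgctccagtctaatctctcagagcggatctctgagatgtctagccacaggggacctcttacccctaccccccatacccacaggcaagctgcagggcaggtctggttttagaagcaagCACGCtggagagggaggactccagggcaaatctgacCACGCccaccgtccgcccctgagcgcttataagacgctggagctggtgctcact
Egln1: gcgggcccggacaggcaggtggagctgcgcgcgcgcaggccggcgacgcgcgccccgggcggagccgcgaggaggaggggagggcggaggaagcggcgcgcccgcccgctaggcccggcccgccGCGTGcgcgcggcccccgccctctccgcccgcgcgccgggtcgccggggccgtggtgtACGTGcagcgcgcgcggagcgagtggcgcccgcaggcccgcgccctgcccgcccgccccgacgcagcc
Vegfa: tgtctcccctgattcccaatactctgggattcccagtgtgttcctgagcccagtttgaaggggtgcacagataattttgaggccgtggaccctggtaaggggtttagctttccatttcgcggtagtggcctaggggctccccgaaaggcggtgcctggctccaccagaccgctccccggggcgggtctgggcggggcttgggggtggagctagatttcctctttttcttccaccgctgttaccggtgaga
The Adm promoter held GCGTG on the opposite strand with first bases 90 and 54 bases before the start. The Egln1 promoter held GCGTG at 126 bases and ACGTG at 68 bases before the start, the latter inside the longer TACGTG. The 250 bases shown for Vegfa held neither, and bases farther upstream were not searched. A further RefSeq start inside this gene had ACGTG and GCGTG in its window, at 211 and 218 bases before that start. Promoter windows from 250 bases before to 50 bases after the start were found for 9 of the 10 genes, Epas1 being the exception, and 7 of these 9 held a core in at least 1 window, namely Hif1a, Arnt, Egln1, Egln2, Egln3, Vegfa and Adm. In all, 8 of 11 windows of these genes held a core. Over all 32851 windows of the mouse table, 43.773% held ACGTG or GCGTG on either strand and 3.227% held TACGTG, which contains ACGTG. Such a match is a description of letters and not of a bound site.

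Transcripts of 5 of the 10 genes increased in hyperoxia-exposed mice (Adm, Epas1, Hif1a, Vegfa and Vhl) and none decreased, where an increase means an adjusted p under 0.05 in limma. Over the 17778 genes tested, 30.5% passed this test, 14.9% higher and 15.6% lower in hyperoxia. The 10 genes were chosen with earlier results of these data known, so setting them beside these shares is a description. The median log2 fold change of the 10 genes was 0.27 against -0.0072 over all tested genes. In whole tissue, fewer cells of a type and less RNA per cell cannot be told apart. In 6 of the 10 genes every hyperoxia library lay above every air library, as it did in 22.3% of all tested genes. Only Epas1 and Adm passed the test under all 16 alternative analyses; the rises of Vhl, Hif1a, Vegfa and Epas1 were between 19.8% and 25.1% of the air level. Values below are normalized read counts unless another unit is named, fold changes are on the log2 scale of that value plus 1 (hyperoxia minus air), and p-values come from limma with Benjamini-Hochberg adjustment over all tested genes.

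**Figure D1:**
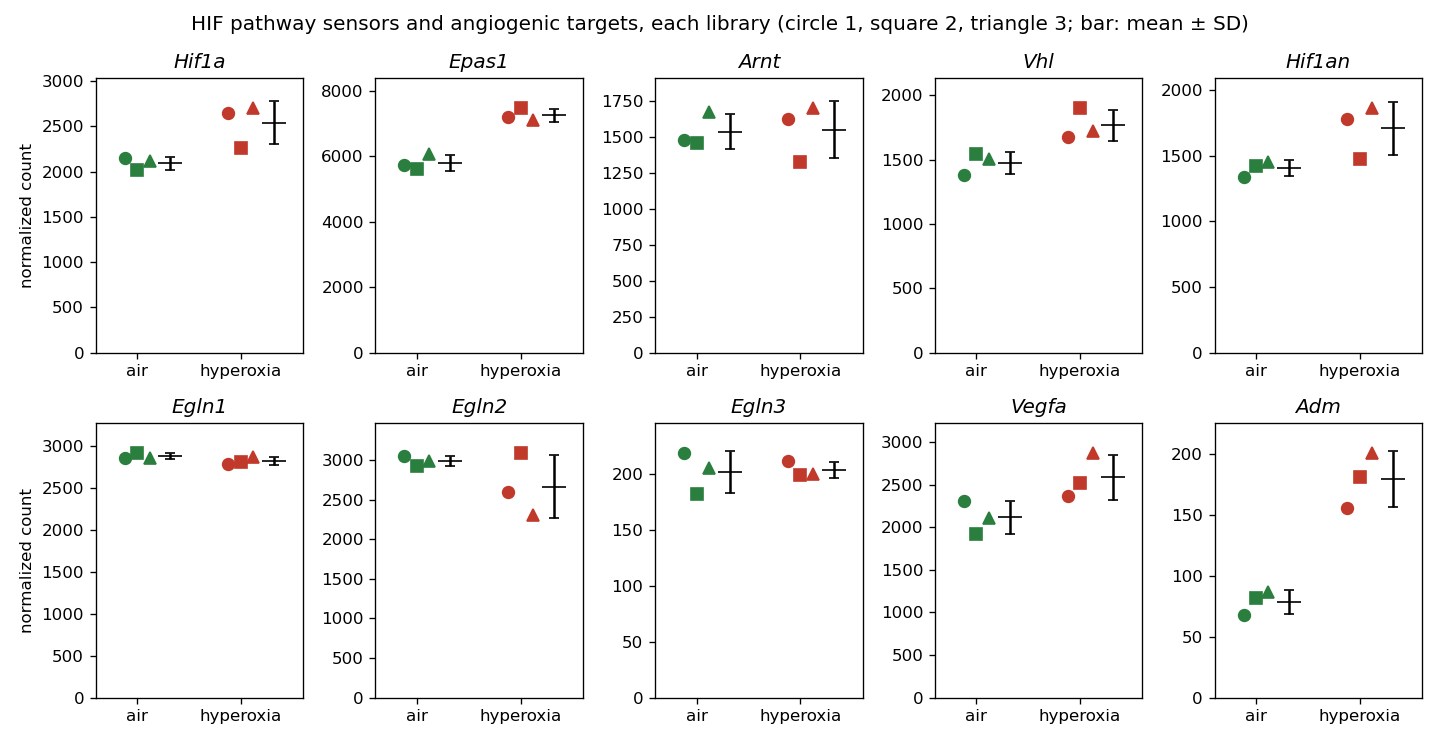
Normalized read count (vertical axes, from 0) of each of the 10 genes in the 3 air (green) and 3 hyperoxia (red) libraries, with circle, square and triangle for columns 1, 2 and 3 and a black bar for the mean and SD. Relative to its own level, Adm shows the widest gap between the groups, from 67.8 to 86.2 in air and from 156 to 201 in hyperoxia, and the groups of Arnt, Egln1, Egln2 and Egln3 overlap.

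The 6 libraries held from 30384052 to 38746972 reads on genes, and the median tested gene had 449 to 576 reads per library. Labels number the animals, so replicates were taken as separate mice. Replicates of a group differed by more than counting noise, and the groups lay apart on the leading principal component, with 52.7% of the variance. Hyperoxia library 2 stood apart from the other two of its group on the second component (19.53%), and hyperoxia library 3 had high choroid plexus transcripts. For the 10 genes, calls that were ended or gained by leaving out either library are given with and without it.

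Of the alpha subunits, Epas1, which encodes HIF-2 alpha, increased with the smaller relative spread. Epas1 (chromosome 17, 86753700 to 86833410, plus strand, GRCm38) measured 5721, 5608 and 6072 in air and 7186, 7481 and 7100.1 in hyperoxia. The lowest hyperoxia library lay well above the highest air library. The rise was 25.1%, a log2 fold change of 0.32 ± 0.067 (SE, n = 3 per group; limma adjusted p = 0.0068), and across the single-library omissions it ran from 0.30 to 0.36.

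Hif1a, which encodes HIF-1 alpha (chromosome 12, 73901375 to 73947530, plus strand), measured 2150.0, 2013 and 2116 in air and 2649, 2264 and 2705 in hyperoxia. The groups did not overlap, and hyperoxia library 2 was the lowest of its group and closest to the air libraries. The rise was 21.3%, a log2 fold change of 0.28 ± 0.084 (SE, n = 3 per group; limma adjusted p = 0.034). After correction for exon length and GC content within each library it was 0.097 (limma adjusted p = 0.22), so the call was lost under this correction. The change of Epas1 under the same correction was 0.31. Leaving out hyperoxia library 2 raised the fold change of Hif1a to 0.36 (limma adjusted p = 0.0010), and leaving out any other library gave an adjusted p between 0.080 and 0.13. An antisense gene, Gm15283, shares 5.6% of the exon length of Hif1a, and the strand setting of the counting is unstated.

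Arnt, the common partner of the alpha subunits (chromosome 3, 95434388 to 95497240, plus strand), measured 1480.4, 1457 and 1678 in air and 1624, 1330.3 and 1705 in hyperoxia. The hyperoxia libraries held both the lowest and the highest value. The log2 fold change was 0.0083 with a 95% interval from -0.23 to 0.24 (limma adjusted p = 0.96), and its sign turned under length and GC correction, quantile normalization and 4 of the 6 single-library omissions.

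The prolyl hydroxylases did not pass the test. Egln1, the main prolyl hydroxylase that marks HIF alpha for degradation (chromosome 8, 124908587 to 124949324, minus strand), measured 2858, 2918 and 2853 in air and 2786, 2808 and 2873 in hyperoxia. The 6 libraries lay close together and the groups overlapped, with a log2 fold change of -0.027 and a 95% interval from -0.17 to 0.11 (limma adjusted p = 0.77). Its sign turned, to 0.072, under length and GC correction.

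Egln3, a prolyl hydroxylase gene that HIF itself is known to induce (chromosome 12, 54178981 to 54203860, minus strand), measured 219, 182 and 205 in air and 212, 199 and 201 in hyperoxia. All hyperoxia libraries lay within the range of air. The log2 fold change was 0.016 with a 95% interval from -0.24 to 0.28 (limma adjusted p = 0.93), and its sign turned under quantile normalization and without air library 2 or hyperoxia library 1.

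Egln2, the third prolyl hydroxylase gene (chromosome 7, 27158658 to 27166802, minus strand), measured 3054, 2922 and 2992 in air and 2599.7, 3094 and 2303 in hyperoxia. Hyperoxia libraries 1 and 3 lay below every air library and hyperoxia library 2 above them all. The log2 fold change was -0.18 with a 95% interval from -0.40 to 0.053 (limma adjusted p = 0.22). Without hyperoxia library 2 it was -0.29 (limma adjusted p = 0.0060). With length and GC correction it was -0.066.

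Hif1an, the asparaginyl hydroxylase known as factor inhibiting HIF (chromosome 19, 44562850 to 44576274, plus strand), measured 1340.1, 1423 and 1456 in air and 1780.3, 1479 and 1866 in hyperoxia. The groups did not overlap, with hyperoxia library 2 just above the highest air library. The log2 fold change was 0.27 ± 0.096 (SE, n = 3 per group) with a 95% interval from 0.060 to 0.49, and it missed the threshold (limma adjusted p = 0.055). It passed with edgeR (adjusted p = 0.048) and DESeq2 (adjusted p = 0.028) on the recovered reads, and in limma without hyperoxia library 2, at 0.37 (adjusted p = 0.0013).

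Vhl, which recognises hydroxylated HIF alpha (chromosome 6, 113623959 to 113631633, plus strand), measured 1382, 1543 and 1503 in air and 1679, 1904 and 1723 in hyperoxia. Every hyperoxia library exceeded every air library, and hyperoxia library 2 was the highest here, where for Hif1a and Hif1an it was the lowest of its group. The rise was 19.8%, a log2 fold change of 0.26 ± 0.080 (SE, n = 3 per group; limma adjusted p = 0.036). It missed the threshold when any of the 3 air libraries or hyperoxia library 1 was left out (limma adjusted p from 0.058 to 0.15).

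Adm, the peptide adrenomedullin (chromosome 7, 110627661 to 110629820, plus strand), showed the largest fold change of the 10 genes. It measured 67.8, 81.4 and 86.2 in air and 156, 181 and 201 in hyperoxia. The lowest hyperoxia library was well above the highest air library. The mean rose from 78.5 ± 9.56 to 179 ± 22.7 (SD, n = 3 per group), a log2 fold change of 1.18 ± 0.16 (SE; limma adjusted p = 0.0011), and the fold change stayed between 1.08 and 1.30 in all 16 alternatives.

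Vegfa, the main growth factor of vessels (chromosome 17, 46016993 to 46032369, minus strand), measured 2309, 1924 and 2113 in air and 2360.2, 2518 and 2873 in hyperoxia. The groups were separated by a narrow margin, air library 1 lying just under hyperoxia library 1. The rise was 22.1%, a log2 fold change of 0.29 ± 0.096 (SE, n = 3 per group; limma adjusted p = 0.048). Vegfa and Adm were both highest in hyperoxia library 3, where Ttr, the defining choroid plexus transcript, measured 7454 against 350.0 and 183 in hyperoxia libraries 1 and 2. Without that library the fold change of Vegfa was 0.21 (limma adjusted p = 0.12) and that of Adm remained called, and the part of choroid plexus RNA in the value of Vegfa was not tested. The call of Vegfa was also lost without any air library or hyperoxia library 1 (limma adjusted p from 0.051 to 0.19) and with no filter on low values (limma adjusted p = 0.052).

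**Figure D2:**
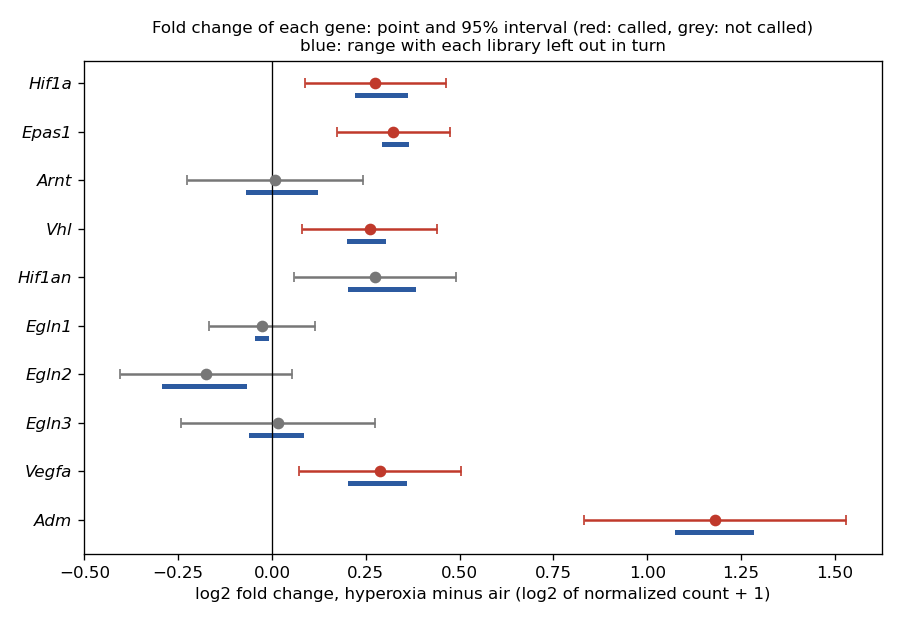
Log2 fold change, hyperoxia minus air (horizontal axis), for each of the 10 genes, with the 95% interval of the limma fit in red for called and grey for other genes and, in blue under each, the range over the 6 single-library omissions. Adm stands at 1.18, Epas1, Vegfa, Hif1a, Hif1an and Vhl lie between 0.26 and 0.32, and the intervals of Arnt, Egln1, Egln2 and Egln3 include 0.

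To compare genes with each other, reads were divided by exon length and by the reads on genes of the library (RPKM). This scaling differs from that of the normalized counts, so it serves to order genes and not to measure change between the groups. The mean of Egln1, for example, was 22.2 in air and 23.1 in hyperoxia in RPKM, but 2877 and 2822 in normalized counts. In RPKM Egln2 (29.6) and Epas1 (28.7) led in air and their ranges overlapped, followed by Egln1 (22.2). Vegfa (13.7) and Vhl (13.6) came next with overlapping ranges, then Hif1a (9.83), then Hif1an (5.89) and Arnt (5.32), whose ranges also overlapped. Egln3 (2.10) and Adm (1.34) were the lowest, and each of the other neighbours in this order had ranges that did not meet.

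In hyperoxia the level of Epas1 per exon length was 38.2 and that of Egln2 28.0, and every library of Epas1 (37.6 or more) exceeded every library of Egln2 (32.1 or less). Adm (3.26) lay above Egln3 (2.26) in every hyperoxia library, the reverse of their order in air. The ratio of Epas1 to Hif1a per length was 2.92 ± 0.11 in air and 3.04 ± 0.39 in hyperoxia (SD, n = 3 per group), a difference smaller than the spread. Egln1 exceeded Egln3 by a ratio of 10.6 ± 1.14 in air and 10.3 ± 0.46 in hyperoxia, which also differed by less than the spread.

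**Figure D3:**
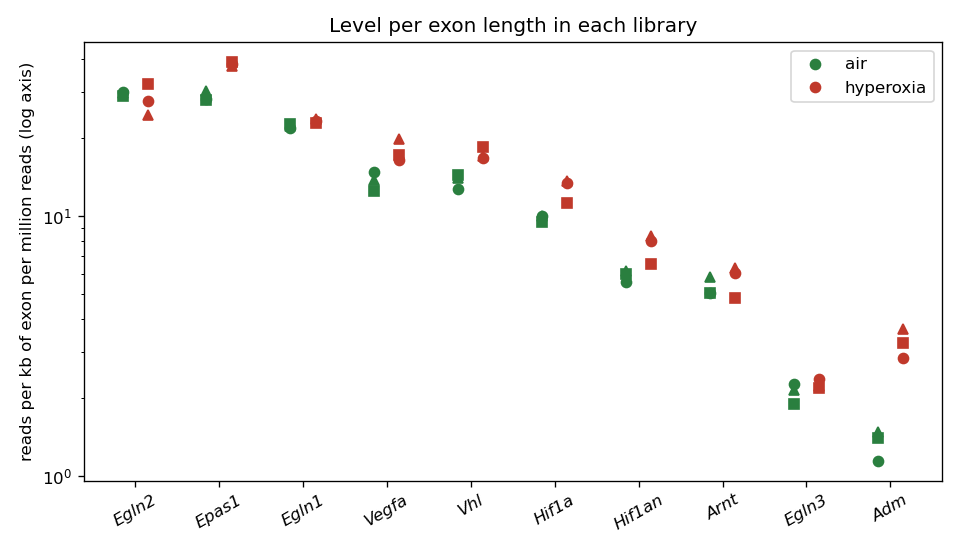
Level per exon length in RPKM (vertical axis, log scale) of the 10 genes in each air (green) and hyperoxia (red) library, with circle, square and triangle for columns 1, 2 and 3, ordered by the air mean. Levels span from 1.34 for Adm to 29.6 for Egln2 in air, and Adm passes Egln3 in hyperoxia.

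Among 17 other regulators of HIF, 3 increased and 3 decreased in hyperoxia-exposed mice, or 17.6% in each direction, near the 14.9% higher and 15.6% lower over all tested genes, with a median log2 fold change of -0.0037. Cited2, which competes with HIF for p300 and CBP and is itself a known HIF target, measured 1568, 1506 and 1333 in air and 987, 984 and 831 in hyperoxia. All hyperoxia libraries lay below all air libraries, with a log2 fold change of -0.65 ± 0.097 (SE, n = 3 per group; limma adjusted p = 0.0017). Hsp90ab1, a chaperone of HIF-1 alpha, decreased with a log2 fold change of -0.34 (limma adjusted p = 0.015), and Os9, which can bring HIF-1 alpha and prolyl hydroxylases together, with -0.29 (limma adjusted p = 0.011). Hsp90ab1 was -0.077 under quantile normalization (limma adjusted p = 0.40) and lost its call in 4 of the 16 alternatives. Os9 was -0.16 under length and GC correction and lost its call without air library 1 or 3 (limma adjusted p = 0.055 and 0.051).

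Arnt2, the paralogue of Arnt that is prominent in neurons, increased from 6867 ± 492 to 8315 ± 455 (SD, n = 3 per group), a log2 fold change of 0.28 (limma adjusted p = 0.026). This call was lost in limma without the trend (adjusted p = 0.072) and without any air library or hyperoxia library 1 (limma adjusted p from 0.056 to 0.13). Per exon length it exceeded Arnt by a ratio of 4.66 ± 0.35 in air and 5.66 ± 0.99 in hyperoxia (SD, n = 3 per group). Hif3a, a HIF alpha paralogue whose short forms restrain the pathway, measured 206, 264 and 423 in air and 529, 445 and 422 in hyperoxia. Air library 3 lay at the level of the lowest hyperoxia library, so the groups met. Its log2 fold change was 0.70 ± 0.22 (SE; limma adjusted p = 0.040), and it ran from 0.47 without air library 1 to 0.99 without air library 3. The call was lost without air library 1 or 2 or hyperoxia library 1 (limma adjusted p from 0.13 to 0.15) and in limma without the trend (adjusted p = 0.10).

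The rest of the VHL ligase did not move as a unit. Cul2, its scaffold, increased by a log2 fold change of 0.25 (limma adjusted p = 0.025), which fell to 0.13 under length and GC correction (limma adjusted p = 0.11), and Cul2 was not called in 7 of the 16 alternatives. Elob and Eloc, which link VHL to the scaffold, had log2 fold changes of 0.20 with a 95% interval from -0.091 to 0.49 and of -0.083 with one from -0.23 to 0.068. Rbx1, the ring finger subunit, had -0.16 with a 95% interval from -0.36 to 0.036. None of Elob, Eloc and Rbx1 passed the test (limma adjusted p = 0.27, 0.38 and 0.19). Under length and GC correction Elob was 0.39 and passed (limma adjusted p = 0.0078) and Eloc was -0.18, and without hyperoxia library 2 Rbx1 was -0.25 and passed (limma adjusted p = 0.0082). Over single-library omissions Elob ran from 0.044 to 0.32.

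Of 21 measured angiogenic ligands and receptors beside Vegfa and Adm, 9 increased and 1 decreased in hyperoxia-exposed mice (Adm2 had no row). These were 42.9% higher, against 14.9% of all tested genes, and 4.8% lower, against 15.6%. Their median log2 fold change was 0.32 against -0.0072 over all tested genes. This list was chosen with earlier results of these data known, so the comparison is a description. The leading genes were Edn1, Ramp3, Aplnr and the adrenomedullin receptor Calcrl. The others that increased were Apln, Kdr, Angpt1, Tie1 and Tek, of which all but Kdr were named after their values were seen, with log2 fold changes from 0.40 for Tek to 0.70 for Apln.

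Kdr, the main signalling receptor of VEGFA (VEGFR2), measured 1267, 1082 and 1145 in air and 1657, 1744 and 1913 in hyperoxia. The groups were far apart, with a log2 fold change of 0.61 ± 0.088 (SE, n = 3 per group; limma adjusted p = 0.0016), and Kdr passed in all 16 alternatives. Flt1 (VEGFR1), which binds VEGFA with high affinity and limits its signal, had 0.19 with a 95% interval from -0.016 to 0.39 (limma adjusted p = 0.14), which turned to -0.018 under length and GC correction. The coreceptor Nrp1 had -0.073 with an interval from -0.27 to 0.13 (limma adjusted p = 0.57), but -0.26 under length and GC correction, where it passed (limma adjusted p = 0.028). The ratio of Kdr to Flt1 per length was 1.05 ± 0.15 in air and 1.40 ± 0.021 in hyperoxia (SD, n = 3 per group), and the lowest ratio in hyperoxia exceeded the highest in air, with no test run on it.

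Calcrl, which forms the adrenomedullin receptor together with Ramp2 or Ramp3, measured 168, 185 and 163 in air and 328, 282 and 306 in hyperoxia. The groups did not overlap, with a log2 fold change of 0.82 ± 0.11 (SE, n = 3 per group; limma adjusted p = 0.0012). Ramp3 measured 126, 98.7 and 104 in air and 347, 453 and 141 in hyperoxia, so hyperoxia library 3 was close to air and the other two far above it. The log2 fold change of Ramp3 was 1.36 ± 0.35 (SE; limma adjusted p = 0.017), rising to 1.86 without hyperoxia library 3 and falling to 1.02 without hyperoxia library 2. Its call was lost without air library 2 or 3 or hyperoxia library 1 (limma adjusted p from 0.057 to 0.070).

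Ramp2 had a log2 fold change of -0.20 with a 95% interval from -0.51 to 0.10 (limma adjusted p = 0.28), and it shares 33.41% of its exon length with Vps25 on the same strand. Without hyperoxia library 2 it was -0.37 (limma adjusted p = 0.0053). Ackr3, a receptor that binds adrenomedullin and CXCL12 without G protein signalling, was the 1 gene of the list that decreased, with a log2 fold change of -0.51 (limma adjusted p = 0.0073).

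Edn1, the vasoconstrictor peptide endothelin 1, measured 96.1, 94.6 and 122 in air and 301, 397 and 330.1 in hyperoxia. All hyperoxia libraries were far above air, with a log2 fold change of 1.71 ± 0.15 (SE, n = 3 per group; limma adjusted p = 0.00029). Aplnr, the apelin receptor, rose from 239 ± 5.10 to 446 ± 25.6 (SD, n = 3 per group), a log2 fold change of 0.90 (limma adjusted p = 0.00047). Vegfb, Vegfc, Vegfd and Pgf, the other ligands of the VEGF family, did not pass the test, with log2 fold changes of 0.027, 0.10, -0.17 and -0.43 (limma adjusted p = 0.90, 0.63, 0.62 and 0.058).

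**Figure D4:**
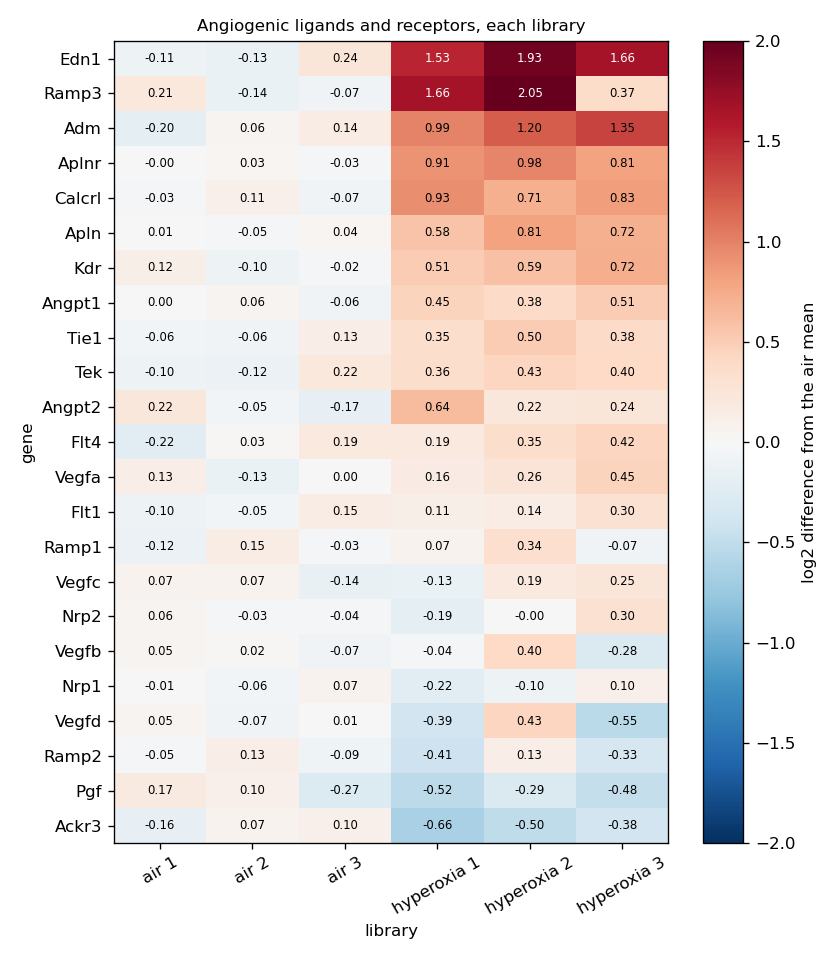
Log2 difference of each library (columns) from the mean of the 3 air libraries for Vegfa, Adm and the 21 other angiogenic ligands and receptors (rows), in red above and in blue below the air mean, computed on log2 of the normalized count plus 1. Edn1, Adm, Aplnr, Calcrl and Kdr are above air in all 3 hyperoxia libraries, and Ramp3 is far above it in hyperoxia libraries 1 and 2 and 0.37 above it in library 3.

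Of 34 further known HIF targets, 32 were tested (Epo had no row and Car9 was below the filter), of which 12 increased (37.5%, against 14.9% of all tested genes) and 3 decreased (9.4%, against 15.6%). Their median log2 fold change was 0.13, against -0.0072 over all tested genes. This list too was chosen with earlier results of these data known. Nos2 and Lox were among those with the larger increases. Nos2, inducible nitric oxide synthase, was low, with 32.0, 48.8 and 17.5 in air and 57.5, 88.3 and 54.1 in hyperoxia. These groups did not overlap, but its log2 fold change of 1.08 (limma adjusted p = 0.043) fell to 0.70 without air library 3 (limma adjusted p = 0.12).

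Lox, which cross-links collagen, had a log2 fold change of 0.69 (limma adjusted p = 0.028), and adding 1 before taking logs understates changes of genes as low as Nos2 and Lox. Lox was not called in 5 of the 16 alternatives (highest adjusted p = 0.11, limma without air library 2), and it ran from 0.55 to 0.86 over single-library omissions. Among the others that increased, 9 named after their values were seen were the glucose transporters Slc2a1 and Slc2a3, Pdk1, Pgk1, Pfkfb4, Bnip3, Ero1l, Tfrc and Vldlr, with log2 fold changes from 0.24 for Pgk1 to 0.42 for Pfkfb4. Of these, Tfrc and Ero1l were each not called in 7 of the 16 alternatives, Pgk1 in 6 and the rest in at most 3. The groups of Tfrc overlapped.

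The 3 targets that decreased were Car12, Stc2 and P4ha2. Car12, a membrane carbonic anhydrase, measured 1936, 1815 and 1780.2 in air and 693, 980.4 and 1022 in hyperoxia. The groups were far apart, with a log2 fold change of -1.06 ± 0.13 (SE, n = 3 per group; limma adjusted p = 0.00098). Stc2, the secreted glycoprotein stanniocalcin 2, had -0.80 (limma adjusted p = 0.0016) and P4ha2, a collagen prolyl hydroxylase subunit, -0.36 (limma adjusted p = 0.045). P4ha2 was not called in 6 of the 16 alternatives, among them the omission of any air library or hyperoxia library 1 (limma adjusted p from 0.056 to 0.16). Known HIF targets in this tissue moved in both directions.

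Transcripts of other cell types were set beside these genes. The counts of called markers, here and for the lists that follow, stand against 14.9% of all tested genes called higher and 15.6% called lower. With so few markers per list, 1 or 2 calls in a direction are near these shares. The summed normalized count of 10 endothelial markers ran from 7661 to 7987 in air and from 7724 to 9422 in hyperoxia, and 3 of the 10 increased (Cldn5, Esam and Cdh5) while 2 decreased (Slco1a4 and Ly6c1). In log2 units this sum lay 0.021, 0.27 and -0.019 from the air mean in hyperoxia libraries 1, 2 and 3. The group means of the 10 markers ran from 48.2% below air for Ly6c1 to 49.5% above it for Cldn5, and that of Kdr lay 52.1% above. Esam, Cdh5, Pecam1, Egfl7 and Erg also had higher means in hyperoxia, and Robo4, Emcn and Slco1a4 lower ones. The part of endothelial cells in the values of Kdr and the other angiogenic ligands and receptors was not tested. Pecam1, a pan-endothelial gene, had a log2 fold change of 0.29 (limma adjusted p = 0.062).

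The summed count of 8 pericyte and smooth muscle markers ran from 12077 to 12394 in air and from 12999.5 to 15343 in hyperoxia, with Rgs5 the 1 called gene of 7 tested. Without Rgs5, an alternative chosen after seeing the data, the sum ran from 5712 to 6250.4 in air and from 5042 to 6306 in hyperoxia, so the groups overlapped. Astrocyte markers, the other cells in which Epas1 is known to be prominent, ran from 207711 to 218227 in air and from 245162 to 262687 in hyperoxia. Of 9 of them, 4 increased (Aldh1l1, Aqp4, Slc1a2 and Fgfr3) and 2 decreased (S100b and Aldoc), with a median log2 fold change of 0.056. Without Slc1a2, chosen likewise after seeing the data, the sum ran from 107232 to 110325 in air and from 99336 to 112729 in hyperoxia, so these groups overlapped too. Microglial markers ran from 10801 to 10886 in air and from 11376 to 12587 in hyperoxia, with 2 of 8 higher (25%, against 14.9% of all tested genes). The part of each of these cell types in the values of Epas1 and Vegfa was not tested.

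Oligodendrocyte markers were lower in hyperoxia, with 6 of 7 decreased (85.7%, against 15.6% of all tested genes). Their sum ran from 216995 to 329682 in air and from 148914 to 181915 in hyperoxia. Of 8 neuronal markers 4 decreased (50%) and 1 increased (12.5%). Of 9 markers of hippocampal pyramidal and granule cells 4 decreased (44.4%) and 1 increased (11.1%). Prox1 and Neurod6 of this last list were present in every library, at 5180.8 or more and 7161 or more. Neurod6 decreased by a log2 fold change of -0.75 (limma adjusted p = 0.0014), and Prox1 had -0.42 (limma adjusted p = 0.081).

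Thalamic markers summed to 2781 to 3079 in air and 4023 to 5248 in hyperoxia, with 2 of 6 higher (33.3%). Slc17a6 rose from a mean of 593 to 1966, by a log2 fold change of 1.72 (limma adjusted p = 0.00012). It made up most of the rise of the sum. Tcf7l2, the other called gene, had 0.76 (limma adjusted p = 0.039), with overlapping groups. Lef1 and Rgs16 (0.31 and 0.24) and Prkcd and Tnnt1 (-0.21 and -0.46) were not called. Choroid plexus markers summed to 546 to 1421 in air and to 491 to 8179 in hyperoxia, with Aqp1 the 1 called gene of 6 tested. Erythroid markers summed to 1748 to 2835 in air and to 2527 to 4042 in hyperoxia, with Hba-a1 higher and Hbb-bt lower. The part of thalamic tissue and blood in the values of the HIF pathway genes was not tested. No marker of these lists was at 0 in any library.

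**Figure D5:**
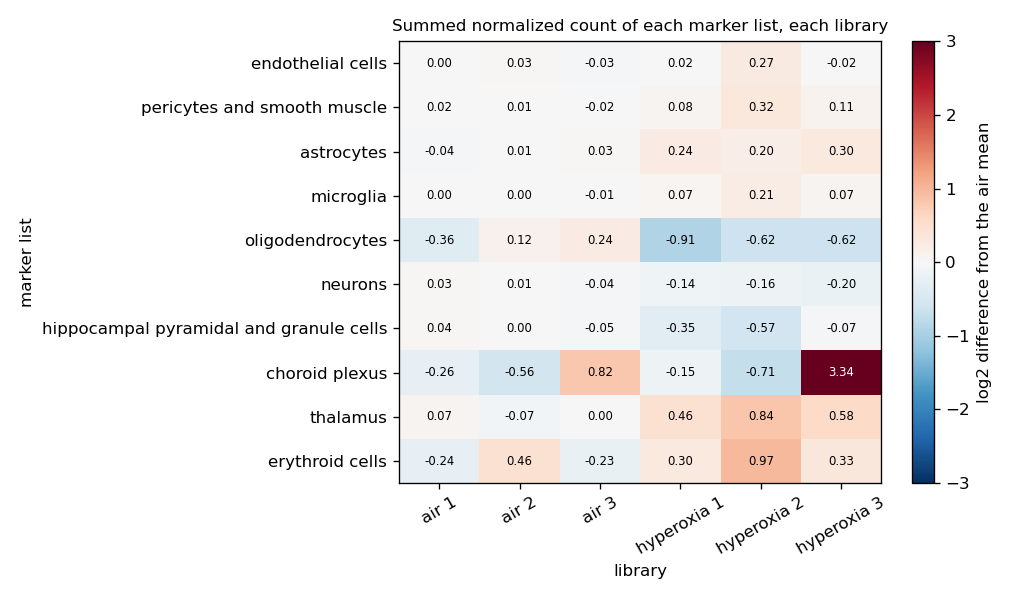
Log2 difference of the summed normalized count of each of 10 marker lists (rows) from the mean of the 3 air libraries, in each library (columns), red above and blue below the air mean. The sums of oligodendrocyte markers, neuronal markers, and pyramidal and granule cell markers are below the air mean in all 3 hyperoxia libraries. Those of astrocyte markers (through Slc1a2) and thalamic markers (largely through Slc17a6) are above it in all 3. Sums of pericyte and smooth muscle, microglial and erythroid markers also lie above it in all 3. Choroid plexus markers are 3.34 above the air mean in hyperoxia library 3.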

How the data were processed

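PolyA-selected RNA was made into strand-specific libraries for paired-end sequencing. The submitters' processing notes name FastQC, STAR 2.5.3a, HTSeq and DESeq2, while no source used here gives the genome build, the annotation or the strand setting of counting. The authors deposited 1 normalized signal per gene and library, the read count divided by 1 size factor per library. All deposited values (100%) lay within 0.01 of whole multiples of 1 read, so reads were recovered. A deposited table of the authors' own comparison (fold changes and p-values) was not used.

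The test covered the 17778 genes, of 24935, whose mean deposited value reached 10. It was limma's moderated test with a variance trend (limma 3.58.1, R 4.3.3), applied to log2(deposited value + 1) with Benjamini-Hochberg adjustment over all of them and a threshold of 0.05. A count model was not the main test because the values are normalized. As alternatives, the pseudocount was set to 0.5 or 5, the filter dropped or raised to a mean of 50, the values rescaled by quantile or TMM normalization, and the trend left out of limma. Further alternatives were edgeR 4.0.16 (quasi-likelihood) and DESeq2 1.42.0 (Wald) on the recovered reads, removal of trends on length and GC content (mgcv 1.9.3), and each library left out in turn. Scripts were tested on simulated data. Positions and exon lengths came from GENCODE M21 (GRCm38), in which 99.68% of gene identifiers were found, and promoters from RefSeq (GRCm38.p6).

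The genes named are the 10 pathway genes, in each of 3 further lists the called genes that rose most (3) and fell most (3), and Flt1, Kdr, Nrp1, Calcrl, Ramp2, Hif3a, Arnt2, Cul2, Elob, Eloc and Rbx1, with marker genes as needed. The 10 genes and the lists were chosen with earlier results of these data known. A gene that this rule names is not reported here.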

Additional observations from a re-analysis of the deposited data

How the results depend on the processing

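Under all 16 alternatives, Epas1 (log2 fold changes from 0.30 to 0.36) and Adm (from 1.08 to 1.30) kept their direction and their call. In limma without the trend, 2 of the 10 genes were called, 3 of the 17 other regulators and 8 of the 32 further targets tested. In the same setting 23.8% of all tested genes were called, so none of these counts stood well above that share. Of the 21 ligands and receptors, 9 were called in this setting, a larger share. Hif1a (0.28, adjusted p = 0.083), Vhl (0.26, adjusted p = 0.079) and Vegfa (0.29, adjusted p = 0.11) were not called in limma without the trend. With no filter, Vegfa (0.29) was not called, which comes with more genes tested (24934). Under length and GC correction Hif1a was 0.097 and not called, and the signs of Arnt (-0.13), Egln1 (0.072) and Flt1 (-0.018) turned. Quantile normalization turned Arnt (-0.00025) and Egln3 (-0.036). edgeR and DESeq2 called Hif1an (0.28 and 0.29). The cause of these changes was not tested.

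With each library left out in turn, which leaves 2 libraries in 1 group, the calls ran from 2 to 7 of the 10 genes. Of the 17 other regulators 1 to 8 were called, and of the 21 ligands and receptors 7 to 13. For the 32 further targets tested the calls ran from 8 to 19, and for the markers from 23 to 43. Over the whole table they ran from 3048 to 7756, or from 17.1% to 43.6% of all tested genes. The highest count of each came without hyperoxia library 2. Leaving out any air library or hyperoxia library 1 gave 2 calls among the 10 genes, near the 17.1% to 20.6% of all tested genes called there. Without hyperoxia library 3 there were 3 calls among the 10 genes, where 28% of all tested genes were called. Over these omissions the log2 fold changes ran from 0.23 to 0.36 for Hif1a, from 0.21 to 0.30 for Vhl, from 0.21 to 0.37 for Hif1an, from 0.21 to 0.35 for Vegfa, from -0.063 to 0.12 for Arnt, from -0.057 to 0.076 for Egln3, from -0.29 to -0.075 for Egln2 and from -0.16 to 0.00074 for Nrp1.

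No paired analysis was possible because the labels number the animals without a shared number between the groups, and the column numbers are not animal numbers. Sensitivity is set by the spread between 3 mice per group, since the median tested gene had 449 to 576 reads per library, and reads are few for Nos2 and Lox.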

Other observations

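The genes whose log2 values followed a HIF pathway gene most closely over the 6 libraries are given as a description, since the points share their libraries and the difference between the groups. For Hif1a they were Rnf11, Gmcl1 and Washc5, each with a Pearson r of 0.999, and 673 tested genes had an r above 0.95. For Epas1 they were Otof (0.999), Car8 (0.998) and Ctps2 (0.997), among 439 genes above 0.95. For Vegfa they were Gm37755 (0.996), Morc2b (0.993) and Kntc1 (0.989), among 49 genes above 0.95. These 3 genes have low values (from 14.2 to 100.4 normalized counts).

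Rnf11, Gmcl1 and Washc5 were, like Hif1a, lowest of the hyperoxia group in library 2, and their own log2 fold changes were 0.17, 0.19 and 0.25, none of which passed the test (limma adjusted p = 0.098, 0.088 and 0.053). Otof, Car8 and Ctps2 had log2 fold changes of 0.42, 1.20 and 0.54, all called (limma adjusted p = 0.012, 0.00059 and 0.0018).

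The ratio of Egln2 to Egln1 per exon length was 1.37, 1.28 and 1.35 in the air libraries and 1.20, 1.41 and 1.03 in hyperoxia libraries 1, 2 and 3. Its spread was wider in hyperoxia (SD 0.19 against 0.045, n = 3 per group), with hyperoxia library 2 above every air library and the other two below.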
